A study of Homo sapiens with 18 samples.

Results

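The exon parts described here are those whose array value was much lower in cells carrying exogenous TRA2A than in control cells of the same line. An exon part is a stretch of an exon with its own probe set on the array, and 573909 of them were measured. Members were chosen by 3 conditions on the deposited log2 values. The control mean was at least 8, the mean of the TRA2A cells lay at least 4 below it, and the highest TRA2A array lay below the lowest control array. In all, 1465 exon parts met these conditions, which is 0.255% of all exon parts and 1.34% of the 109552 with a control mean of at least 8, called bright here. Because the choice used the difference between the TRA2A and control arrays, that difference is a description below and was not tested.

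All cells were MDA-MB-231, a human cell line from a triple-negative breast cancer, grown in Dulbecco's medium with fetal bovine serum. The 231T group received a TRA2A vector, the PTX group was cultured with the microtubule-stabilising drug paclitaxel at 10 nM, and the control group is labelled only as control. Each group has 3 exon-level arrays and 3 gene-level records. For 2 of the control arrays, replicates 2 and 3, one label ends the name of the line with a different digit, but the other labels name MDA-MB-231. Whether control cells received an empty vector, whether 231T is 1 clone, and whether the arrays of a group come from separate cultures is not stated, so all spreads and p-values cover these arrays only.

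TRA2A is a nuclear RNA-binding protein with arginine-serine-rich domains that acts as a sequence-dependent regulator of splicing, usually promoting inclusion of exons that carry its binding motifs. A splicing change alters the signal of 1 or a few exon parts and of the junctions beside them, whereas a change in transcript abundance alters nearly all exon parts of a gene together. Exon arrays give both views of a gene, which is why the position of each member among its neighbours is given here.

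The gene-level record of TRA2A read 9.37, 9.42 and 9.19 in 231T, 8.32, 7.82 and 7.60 in PTX, and 6.50, 7.15 and 6.95 in control. Its 231T minus control difference was 2.46 (limma, adjusted p = 0.000250), and its PTX minus control difference was 1.04 (limma, adjusted p = 0.0618). The 231T arrays also lay lower as a whole: the median of background probe sets was 3.82 in 231T, against 4.07 in control, and the median difference over all bright exon parts was -0.42. Over all exon-part and junction probe sets, the array medians were 4.70 to 4.75 in 231T, 5.11 to 5.18 in PTX and 5.10 to 5.13 in control. For 2995 probe sets held by both deposited tables, the 231T values were equal within 5e-05, while the control values were higher in the exon-level table by a median of 0.167 to 0.187 and the PTX values by 0.174 to 0.186. The control and PTX values of the 2 tables were thus not made in the same way. The control offset depended on the level, taken as the control mean in the gene-level table. Its medians were 0.324 to 0.327 among shared probe sets at 8 to 10, and -0.01721 to -2e-05 at 12 and above. By their exon-level values, 845 members (57.7%) had a control mean of at least 12. The 231T means of all members had a median of only 7.50, and the shared 231T values carried no such offset. How far the offset enters the differences of the members was not tested. The lower level of the 231T arrays as a whole did bear on the number of members. With each array centred on its median, 883 of the 1465 members (60.3%) still met the conditions, and after quantile normalization 1011 (69.0%) did. Values reached 19.93, above the range of a 16-bit scanner, so differences are given on the log2 scale and not as folds of RNA. Of 7 clusters of 6 marker genes of MDA-MB-231, 1 was called higher (CD44, 0.98) and 1 lower (AXL, -1.28) in 231T, and the mesenchymal VIM read 13.1 to 13.2 in all groups. Of 9 clusters of 8 luminal genes, 1 of KRT8 was called lower (-0.65), KRT18 averaged 12.27 in 231T and 12.56 in control, and CDH1 and ESR1 averaged 3.57 to 3.95. Of 4 clusters of 3 fibroblast genes, 1 was called lower in 231T: PDGFRB averaged 4.31 in 231T and 4.95 in control (difference -0.63, limma, adjusted p = 0.00289). The 3 blood cell genes, PTPRC among them, averaged 3.62 to 3.93 in 231T and 3.74 to 4.10 in control. Among 23 clusters of 22 splicing regulator genes, TRA2A included, 19 were called higher and 0 lower in 231T (limma, adjusted p under 0.05). SRSF2, SRSF9, HNRNPA1, HNRNPK and PTBP1 of the planned list had no cluster under their own name. The 23 differences had a median of 1.51, and that of SRSF1, 3.03, was larger than that of TRA2A. Of all 67528 clusters, 7.16% were called higher and 8.85% lower. Only 4942 of them had a control mean of at least 8, and the shares called among those were not counted. In PTX 0 of the 23 were called, against 0.228% higher and 0.740% lower of all.

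Runs of neighbouring members pointed to genes in which most exon parts were low together. MUC5B and ITGB4, described below, were such genes but had no promoter in the table used. The promoters of 4 others are shown as examples in which all or nearly all of the gene's bright exon parts were low in 231T. Each is 250 bases before to 50 after a RefSeq transcript start on GRCh38.p14, written 5′ to 3′, all on the plus strand, with the dinucleotide CG in capitals. MAGED1 (MAGE family member D1) has 2 starts in the table, at chrX:51802826-51803125 and chrX:51893373-51893672. CREB3L1, a membrane-bound transcription factor of the endoplasmic reticulum, starts in chr11:46294909-46295208, IGFBP4, a secreted binding protein of insulin-like growth factors, in chr17:40443200-40443499, and FAM114A1 in chr4:38867556-38867855.
MAGED1, first start: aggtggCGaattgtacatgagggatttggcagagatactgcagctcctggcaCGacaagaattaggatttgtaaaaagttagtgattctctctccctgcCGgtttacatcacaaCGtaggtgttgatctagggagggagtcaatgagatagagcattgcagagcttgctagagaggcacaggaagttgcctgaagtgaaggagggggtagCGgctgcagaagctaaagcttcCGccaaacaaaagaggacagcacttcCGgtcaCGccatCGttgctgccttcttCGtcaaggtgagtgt
MAGED1, second start: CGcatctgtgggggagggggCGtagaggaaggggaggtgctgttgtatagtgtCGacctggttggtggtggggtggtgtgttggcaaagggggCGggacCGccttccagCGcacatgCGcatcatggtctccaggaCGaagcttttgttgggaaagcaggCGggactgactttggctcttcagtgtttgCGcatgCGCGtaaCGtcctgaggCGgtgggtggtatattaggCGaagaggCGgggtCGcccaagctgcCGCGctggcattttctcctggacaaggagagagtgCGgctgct
CREB3L1: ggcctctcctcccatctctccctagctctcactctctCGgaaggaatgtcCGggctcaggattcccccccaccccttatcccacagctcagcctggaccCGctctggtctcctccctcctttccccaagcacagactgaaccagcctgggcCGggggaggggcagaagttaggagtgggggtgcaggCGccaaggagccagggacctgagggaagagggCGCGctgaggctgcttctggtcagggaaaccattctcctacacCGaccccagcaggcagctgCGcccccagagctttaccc
IGFBP4: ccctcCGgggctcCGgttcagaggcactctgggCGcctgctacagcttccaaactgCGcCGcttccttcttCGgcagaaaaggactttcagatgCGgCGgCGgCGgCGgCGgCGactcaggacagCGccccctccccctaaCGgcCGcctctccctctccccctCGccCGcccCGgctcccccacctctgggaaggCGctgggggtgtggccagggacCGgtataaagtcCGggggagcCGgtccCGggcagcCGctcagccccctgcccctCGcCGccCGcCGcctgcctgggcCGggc
FAM114A1: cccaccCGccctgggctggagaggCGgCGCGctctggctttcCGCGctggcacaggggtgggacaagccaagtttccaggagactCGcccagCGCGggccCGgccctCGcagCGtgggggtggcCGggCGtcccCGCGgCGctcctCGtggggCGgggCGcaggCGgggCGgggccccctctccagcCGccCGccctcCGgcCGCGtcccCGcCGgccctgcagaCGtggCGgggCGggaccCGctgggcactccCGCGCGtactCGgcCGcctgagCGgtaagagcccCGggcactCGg
The windows held 10, 20, 9, 30 and 41 CG in this order. The median over the 35116 promoters of the table was 14, and 56.4%, 41.2%, 58.4%, 22.4% and 6.70% of them held at least as many. The genes shown thus lie on both sides of the median, and a CG count says nothing here about the state of these promoters in the cells.

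Over the 1465 members, the median of each array was 7.62, 7.37 and 7.50 in 231T, 11.12, 11.15 and 11.81 in PTX, and 12.69, 12.30 and 12.62 in control. The 231T arrays were low by the choice of members, and the PTX arrays lay between the other groups, much nearer to control. Over all bright exon parts the array medians were 9.94 to 10.13 in 231T, 9.94 to 10.35 in PTX and 10.28 to 10.33 in control. The 231T minus control difference of the members had a median of -4.56, with quartiles of -5.17 and -4.21 and a lowest value of -13.23. The lowest control array lay 2 or more above the highest 231T array in 1433 members and less than 1 above it in 7. In 25 members the 231T mean was below 3.89, the 25th percentile of all probe sets, and in 145 the control mean was above 16. In bulk RNA, fewer cells that hold a transcript and less of it per cell cannot be told apart.

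**Figure D1:**
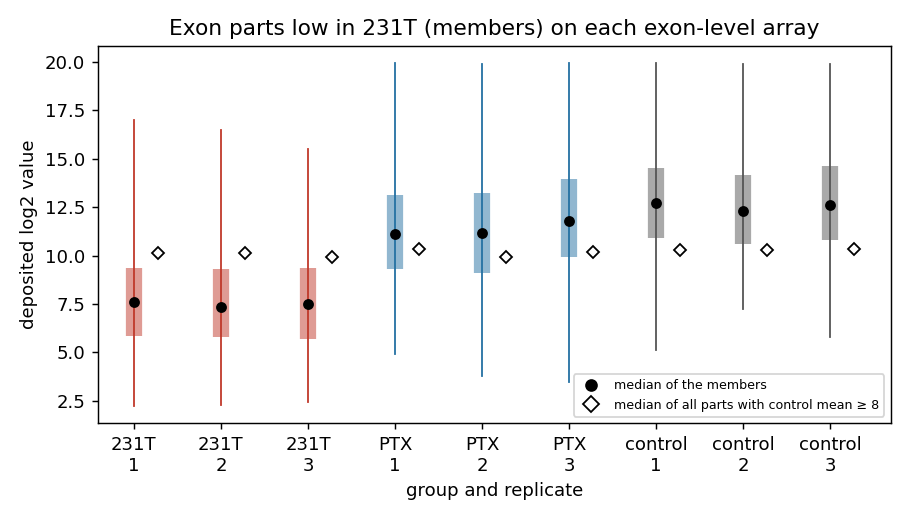
Each bar shows 1 exon-level array: the thin line spans the lowest to the highest of the 1465 members, the thick part the range between the quartiles, the dot their median, and the diamond the median of all exon parts with a control mean of at least 8, all as deposited log2 values. The dots lie at 7.37 to 7.62 in 231T, 11.12 to 11.81 in PTX and 12.30 to 12.69 in control, while the diamonds lie between 9.94 and 10.35 on all arrays.

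The thresholds cut through a continuous range. Just inside the difference threshold, R3HDM2 read 9.76, 9.84 and 9.40 in 231T, against 13.97, 13.24 and 13.79 in control, and NIPSNAP1 differed by -4.00161. Just outside it, RTL8A differed by -3.99911 and RBM24 by -3.99977. Just inside the brightness threshold, a MUC5B part had a control mean of 8.06 and a GNAO1 part one of 8.12, and just outside, an SCNN1A part had 7.94 and an unnamed part on chromosome 17 7.95. The narrowest gap between the groups belonged to an unnamed part on chromosome 6, which read 8.68, 3.35 and 3.41 in 231T, against 9.91, 8.996 and 9.75 in control. A MKRN1 part had the next narrowest gap, of 0.62. Parts of RB1 and DAPP1 passed both other conditions but their groups overlapped, by 0.0091 and 0.32.

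The choice was also made without 1 control and 1 231T array of the same number, and the difference was then read in the 2 arrays left out. These choices held 1554, 1738 and 1485 exon parts. In the arrays left out, 96.3%, 97.1% and 98.2% of them differed by -2 or lower, and 61.3%, 53.7% and 65.8% by -4 or lower. Between 9 and 12 of them were higher in the left-out 231T array. The median difference over all bright exon parts in the same left-out arrays was -0.33, -0.39 and -0.52. A shift common to the 231T arrays is thus present in the left-out arrays too. With 1 array a group there is no test of these values, and they share every array but 2 with the choice of members.

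Neighbouring exon parts of a chromosome follow each other by running number in the probe set IDs. Neighbours are the next IDs present in the data, so numbers can skip within a run. In this order, 286 members (19.5%) fell into 63 runs of 3 or more, 230 into 115 pairs, and 949 (64.8%) stood alone. Where only numbers that differ by 1 count as neighbours, 216 were in runs of 3 or more and 993 alone. The members in runs of 3 or more had a median difference of -5.43, against -4.59 in pairs and -4.42 in those standing alone. The longest run by far held 36 parts, and the next held 9.

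MUC5B, which encodes a gel-forming mucin of secretory epithelium, had the longest run and the 4 lowest differences among named members. Of its 101 exon parts, 50 were bright, all 50 differed by -2 or lower and 42 were members. The run of 36 extended from PSR11000737 to PSR11000798, with many numbers skipped. Its array medians were 4.92, 5.29 and 5.51 in 231T, 15.17, 14.46 and 15.94 in PTX, and 14.34, 13.59 and 15.16 in control. The 231T means of the single parts of this run varied between 3.17 and 8.91, and the PTX and control medians overlapped. The lowest difference of all members, -13.23, was that of PSR11000779, which read 5.42, 6.37 and 4.27 in 231T, 19.43, 19.40 and 19.91 in PTX, and 18.38, 17.83 and 19.54 in control. The MUC5B parts PSR11000767, PSR11000761 and PSR11000789 followed among named members, with differences of -12.39, -12.02 and -11.83. Of the 30 bright MUC5B junctions, 23 differed by -2 or lower. The gene-level record read 4.55, 4.66 and 4.82 in 231T, against 7.49, 7.30 and 8.48 in control, a smaller difference of -3.08.

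A second block on chromosome 11, without a gene name in the annotation used, had much the same values. It held 14 members with running numbers between 29805 and 29843, of which the first 8 formed a run with a median difference of -8.43. Its array medians were 4.64, 4.53 and 4.54 in 231T, 13.70, 13.73 and 14.76 in PTX, and 12.09, 12.28 and 13.72 in control. Its lowest member, PSR11029809, differed by -12.34, and only PSR11000779 and PSR11000767 lay lower. These parts are named by ID only, and whether they share transcripts with MUC5B was not tested.

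ITGB4, the integrin beta-4 subunit that binds laminin and anchors epithelial cells at hemidesmosomes, had 32 members among 35 bright exon parts, and 34 of the 35 differed by -2 or lower. Its longest run, from PSR17011208 to PSR17011216, held 9 parts with array medians of 6.50, 5.58 and 6.26 in 231T, 11.38, 11.65 and 12.35 in PTX, and 13.73, 12.55 and 13.32 in control. The 3 groups did not overlap at these medians. Of 29 bright ITGB4 junctions, 26 differed by -2 or lower, with a median of -6.68. The gene-level record read 5.50, 5.58 and 5.46 in 231T, 8.53, 8.33 and 8.78 in PTX, and 10.04, 9.73 and 10.14 in control.

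MAGED1 on chromosome X had 19 members among 22 bright parts. Its run of 7, from PSR0X003924 to PSR0X003934, had array medians of 8.07, 8.38 and 8.22 in 231T, 12.28, 11.67 and 13.07 in PTX, and 15.76, 14.94 and 14.92 in control. One bright MAGED1 part was an exception, with a difference of 0.14. It is the first part in order, averaged 11.91 in 231T, 12.05 in PTX and 11.76 in control, and lies apart from the rest in the plot of values along the gene. The gene-level record of MAGED1 read 5.64, 5.45 and 5.83 in 231T, 6.91, 7.02 and 7.40 in PTX, and 9.30, 8.70 and 8.66 in control.

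**Figure D2:**
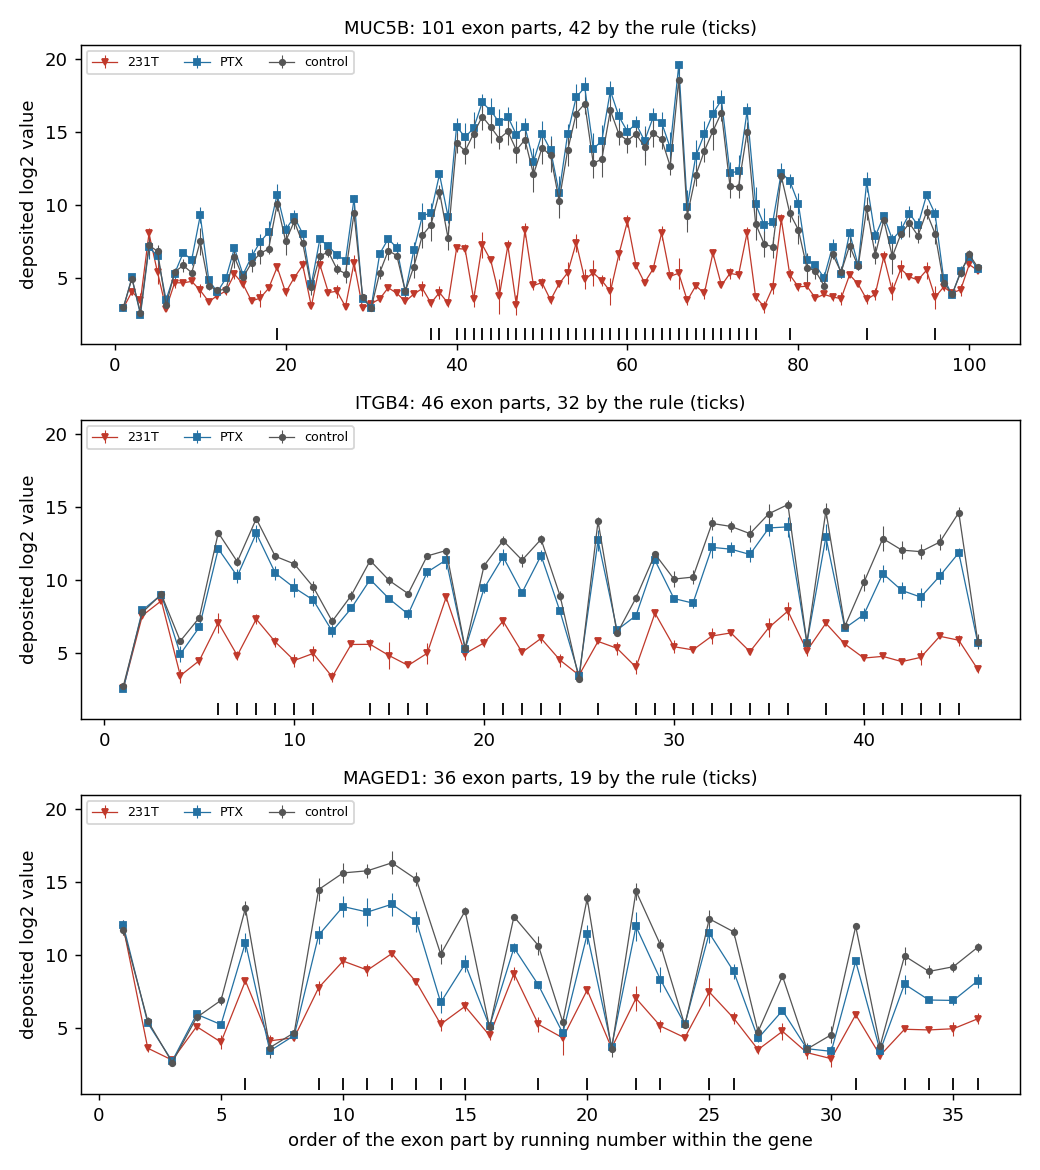
Points give the mean and bars the SD of 3 arrays for every exon part of MUC5B, ITGB4 and MAGED1, in the order of their running numbers, on the deposited log2 scale, with ticks below for members. The 231T values vary between 3.17 and 8.91 along the MUC5B run of 36 while PTX and control run together well above them, whereas PTX lies between 231T and control along most of ITGB4 and MAGED1.

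A run of 8 unnamed parts on chromosome 16 (PSR16013793 to PSR16013800) is 1 measurement. All 8 had identical values, of 9.99, 9.54 and 7.95 in 231T, 12.73, 13.02 and 13.83 in PTX, and 13.41, 13.20 and 15.07 in control. Besides that of MAGED1, 2 more runs held 7 parts. One, of unnamed parts on chromosome 4 (PSR04025880 to PSR04025886), had array medians of 9.17, 9.22 and 9.95 in 231T, 13.24, 11.27 and 12.59 in PTX, and 14.87, 13.69 and 13.98 in control. The other, on chromosome 22 (PSR22002680 to PSR22002686), lay in SUSD2, which encodes a membrane protein with a sushi domain, and had medians of 7.53, 7.51 and 7.65 in 231T, 11.57, 11.96 and 12.04 in PTX, and 12.71, 12.09 and 12.48 in control. The 3 groups did not overlap at the medians of either run, and PTX lay nearer to control than to 231T in both.

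In all, 103 members had values identical to those of an earlier member, which leaves 1362 distinct ones. Another source of copies was the set of alternative contigs, which held 89 members, 85 of them on 7 haplotype contigs of chromosome 6.

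The gene annotation named 1190 members, 1129 of them by 1 gene and 61 by several, and left 275 (18.8%) without a name. The single names belong to 533 genes. In the counts of genes from here on, a gene counts once for each chromosome code, so copies on alternative contigs count again. Counted so, the 533 genes make 579. Among 6218 genes with 5 or more bright exon parts, 443 had a member. These were sorted by how much of the gene was low, with limits set after the values were seen. KIFC1, for example, counts for chromosome 6 and again for haplotype contigs in the class with the fewest low parts. In 79 genes at least 90% of the bright parts differed by -2 or lower, in 262 between 25% and 90% did, and in 102 under 25% did. These 3 classes held 383, 470 and 104 members. After quantile normalization of the arrays, which lie lower as a whole in 231T, 44 genes were low throughout and 80 had few low parts. Among all 6218 genes the same classes made up 1.75%, 18.1% and 80.2%. A member adds a low part to its own gene, so these shares are no test.

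Junction probe sets, which the choice did not use but which come from the same arrays, followed the classes. In the 79 genes low throughout, 616 of 725 bright junctions (85.0%) differed by -2 or lower. In the class between it was 62.5%, and in the 102 genes with few low parts 179 of 1080 (16.6%), against 20.6% of all bright junctions. The median gene-level difference was -2.23, -1.02 and -0.05 in the same order of classes.

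The genes named next were chosen after their values were seen, and no functional group was counted or tested. TNS4, a tensin of focal adhesions, had 12 members among 13 bright parts, with array medians of 4.87, 5.06 and 5.43 in 231T, 11.58, 10.63 and 12.84 in PTX, and 13.40, 13.35 and 13.47 in control. Its median difference over bright parts, -8.21, was the lowest of the 79 genes, and all 10 bright junctions differed by -2 or lower. JUP, the junction plaque protein plakoglobin, had 11 members among 17 bright parts, at medians of 7.80, 7.35 and 7.81 in 231T, against 12.86, 12.30 and 13.05 in control. TNS3, a further tensin, had 7 members, but 35 of its 36 bright parts differed by -2 or lower. In TNS3 the PTX arrays overlapped control, at 13.56, 14.51 and 14.67 in PTX, against 14.18, 14.20 and 14.45 in control.

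The transcription factor gene CREB3L1 had 11 members among 13 bright parts, with array medians of 6.12, 6.10 and 6.57 in 231T, 10.93, 10.46 and 12.72 in PTX, and 12.95, 11.85 and 12.58 in control. NPAS2, a transcription factor of the circadian clock, had 12 members among 18 bright parts, all 18 of which differed by -2 or lower. Its medians were 8.78, 8.90 and 8.26 in 231T, 11.86, 11.51 and 12.91 in PTX, and 14.07, 13.47 and 13.96 in control. SREBF1, which drives lipid synthesis genes, belonged to the class between, with 10 members and 14 of 16 bright parts at -2 or lower. Its medians were 8.03, 7.42 and 7.54 in 231T, 12.17, 12.15 and 13.94 in PTX, and 13.42, 12.34 and 13.37 in control. HIF1A, the oxygen-regulated subunit of hypoxia-inducible factor, had 5 members, and 18 of its 22 bright parts differed by -2 or lower.

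IGFBP4 had 5 members among 6 bright parts, at medians of 12.66, 12.27 and 12.45 in 231T, 17.07, 16.99 and 18.08 in PTX, and 18.27, 17.32 and 18.23 in control. The 5 IGFBP4 members averaged 9.10 to 15.50 in 231T, against a background median of 3.82 there. AQP3, a channel for water and glycerol, had 7 members among 10 bright parts, whose median difference was -5.63. CSF1, the macrophage colony-stimulating factor, had 8 members and 13 of 13 bright parts at -2 or lower, with medians of 8.30, 8.14 and 6.89 in 231T, against 12.60, 12.09 and 13.03 in control. SUSD2 had 10 members among 12 bright parts. CST1, CST2 and CST4, secreted cystatins that inhibit cysteine proteases, held 6 members, of which 1 of CST1 and 1 of CST4 had identical values, so that these genes cannot be told apart there. IFITM1, an interferon-induced membrane protein, had 5 members at medians of 7.86, 6.52 and 7.62 in 231T, 13.08, 12.16 and 14.70 in PTX, and 14.18, 13.78 and 13.97 in control.

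In the class between, a part of the gene was low and the rest less so. LRP5, a co-receptor of Wnt signalling, had 11 members among 25 bright parts, and its other 14 bright parts had a median difference of -2.84. CD55, which protects cells from complement, had 8 members among 20 bright parts, with a median of -1.55 over the other 12. MED24, a subunit of the mediator complex, had 6 members, while 3 of its 34 bright parts were higher in 231T. Since only values past -4 count, a gene that is low throughout by about that size also splits into members and others.

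Of the 949 members standing alone, 634 (66.8%) had at least 1 bright exon part that differed by -2 or lower among the 2 nearest on each side. Another 166 had bright neighbours but none so low, and 149 had no bright neighbour. Their 2 nearest exon parts on each side included 1874 bright ones, of which 1264 (67.4%) differed by -2 or lower, against 14.0% of all bright exon parts. Only 262 (13.98%) of these neighbours lay within 1 of control, against 50.02% of all bright parts. Of the 127 lone members with 4 bright neighbours, all 4 differed by -2 or lower in 49 and all 4 lay within 1 in 4. These neighbours come from the same genes as the members chosen, so the shares are a description.

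The 4 lone members among level neighbours were parts of RPL15, FSTL1, NUP188 and PDCD4. The part of RPL15, a protein of the large ribosomal subunit (PSR03002426), read 17.01, 11.05 and 10.10 in 231T, 19.91, 19.85 and 19.88 in PTX, and 19.91, 19.88 and 19.88 in control. The PTX and control values lay at the top of the scale, and the 231T arrays scattered with an SD of 3.75. The neighbour PSR03002425 also lay near the top, averaging 19.48 in 231T and 19.68 in control, where differences can be hidden. The part annotated to FSTL1 and MIR198 (PSR03030491) read 7.99, 10.53 and 5.82 in 231T, 14.78, 12.48 and 14.59 in PTX, and 14.64, 14.66 and 14.82 in control. NUP188, a scaffold protein of the nuclear pore, had 48 bright parts, of which this 1 member alone differed by -2 or lower. The NUP188 part (PSR09008764) read 12.50, 12.88 and 8.40 in 231T, 15.77, 16.03 and 16.70 in PTX, and 15.11, 15.19 and 15.65 in control. The part annotated to PDCD4 and MIR4680 (PSR10009680) read 7.61, 8.30 and 5.31 in 231T, 11.17, 9.04 and 13.11 in PTX, and 12.005, 9.96 and 11.33 in control. The 231T SD of these 4 parts was 1.57 to 3.75. The PDCD4 part also scattered in PTX (SD 2.03) and control (SD 1.04), and among the neighbours those of FSTL1 had PTX SDs of up to 1.43.

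**Figure D3:**
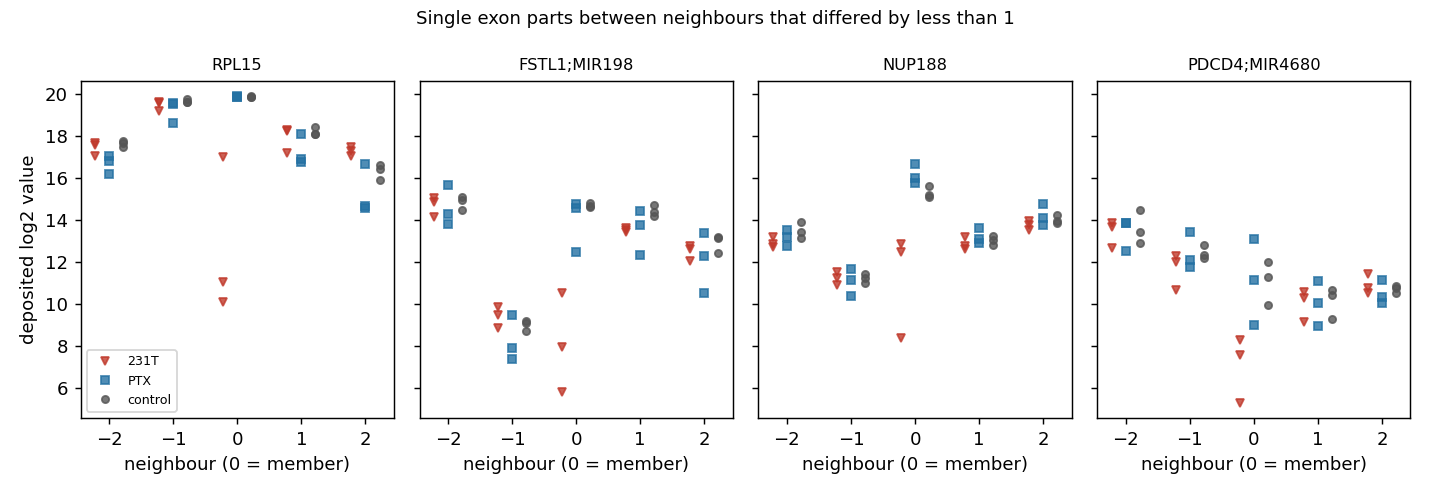
Each panel shows 1 lone member (position 0) with the 2 exon parts before and after it, and each symbol is 1 array on the deposited log2 scale. The group means of the neighbours differ by less than 1 between 231T and control, and the 231T symbols at position 0 lie lower and are spread, with SDs of 1.57 to 3.75.

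The 104 members in the 102 genes with few low parts had a median 231T SD of 0.82, against 0.37 in the genes low throughout, and in 43 of them (41.3%) it exceeded 1, against 12 of 383 (3.13%). In 55 of these genes no other bright part differed by -2 or lower. Examples with close 231T arrays, chosen after their values were seen, were parts of TTI1, COL4A1 and SUB1. The part of TTI1, a cofactor of PI3K-related kinases, read 8.40, 8.07 and 8.18 in 231T, 14.53, 12.94 and 12.98 in PTX, and 14.34, 13.61 and 12.75 in control. The COL4A1 part (type IV collagen) read 7.96, 7.39 and 7.69 in 231T, 14.65, 15.32 and 14.10 in PTX, and 13.52, 13.42 and 14.55 in control. The part of SUB1, a transcription coactivator, read 13.74, 12.68 and 13.16 in 231T, 19.93, 19.88 and 19.91 in PTX, and 19.93, 19.91 and 19.91 in control. These PTX and control values of SUB1 lay at the top of the scale.

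Further examples were also chosen after their values were seen. PABPC1, the cytoplasmic poly(A)-binding protein, had 39 bright parts with a median difference of -0.00227 and 1 member, which read 10.53, 10.78 and 8.30 in 231T, 17.28, 14.91 and 17.50 in PTX, and 17.61, 18.14 and 17.84 in control. RAB7A had the same median over its bright parts, and the gene-level records of both genes read 19.16 to 19.38, near the top of the scale. Differences can be hidden there, so the median does not show that the other PABPC1 parts were level. RBM5, a splicing regulator, had 1 member among 27 bright parts, at 8.63, 10.29 and 9.78 in 231T, against 14.70, 14.99 and 15.05 in control. HNRNPL, which represses or promotes exons with CA-rich motifs, had 1 member among 18 bright parts, at 6.82, 8.74 and 8.29 in 231T, against 11.63, 12.21 and 12.44 in control. FXR1, a paralog of the fragile X protein, and ERLEC1, a lectin of the endoplasmic reticulum, had 2 members each. The FXR1 parts read 11.43, 10.71 and 10.11, and 11.81, 10.43 and 10.32 in 231T, against 15.88, 16.30 and 15.89, and 14.95, 15.45 and 15.14 in control. In FXR1, 14 of 22 bright parts were higher in 231T and the gene-level difference was 0.47.

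Of 1111 members in genes with a known order of parts, 65 (5.85%) were the first or last part. Of the 712 lone ones 51 (7.16%) were, against 4.79% of all bright parts, so the shares of members at the ends of genes were somewhat above that of bright parts, a difference that was not tested.

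By chromosome code, the share of bright exon parts that were members was highest for X (2.88%), 17 (2.73%), 11 (2.66%) and 19 (2.04%) and lowest for 18 (0.281%). Runs of 3 or more held 70 of 149 members on 11, 43 of 97 on X and 66 of 176 on 17. On 19, 18 of 100 members were in runs, and the median difference of its bright parts, -0.90, was the lowest of the numbered chromosome codes. Junctions that met the same 3 conditions numbered 2315, or 2.90% of bright ones, and their share was also high for 19 (4.29%), 17 (4.22%) and X (4.002%). The mirrored conditions for raised parts were met by 573 of 102287 exon parts bright in 231T (0.560%).

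**Figure D4:**
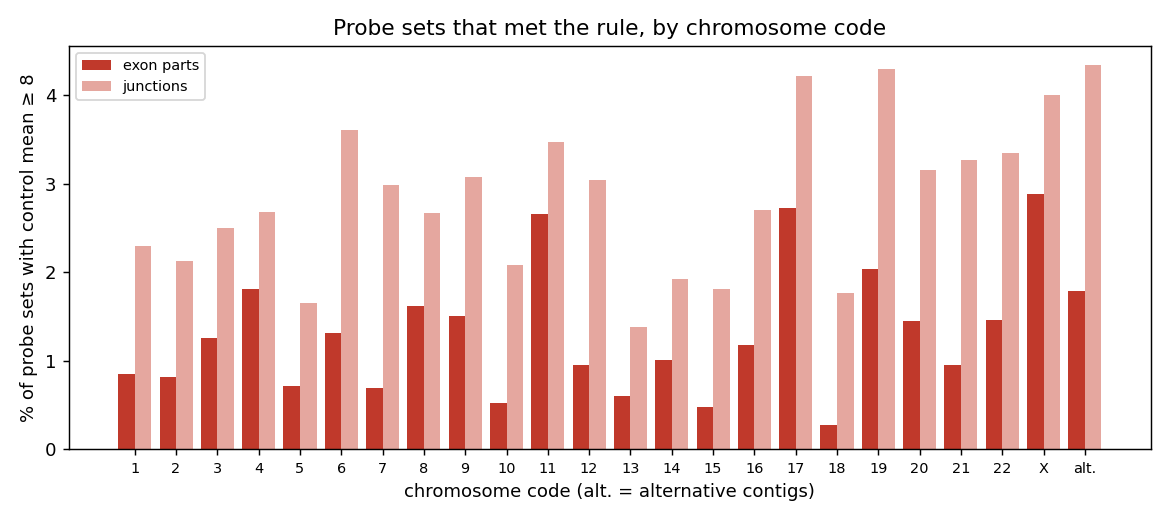
Bars give the percent of exon parts and of junctions with a control mean of at least 8 that met the 3 conditions, by chromosome code. X, 17, 11 and 19 stand highest for exon parts, and 19, 17 and X are among the highest for junctions.

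The paclitaxel arrays were not used by the choice, but the PTX minus control difference shares the control arrays with it, and how much of the difference comes from that was not tested. Each group's values are therefore given side by side. Over the 1465 members, all of which passed the filter on low values, the median PTX minus control difference was -1.16, against -0.15 over all bright exon parts and 0.01 over all probe sets tested. All 3 PTX arrays lay below all 3 control arrays in 805 members (54.9%), against 20.1% of all bright exon parts, and above them in 43 (2.94%), against 8.02%. In 1417 members all PTX arrays lay above all 231T arrays, and in 163 the PTX mean was nearer to 231T than to control.

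In limma across 684791 probe sets, 106 members (7.24%) were called lower in PTX at an adjusted p under 0.05 and 0 higher, where 0.0936% and 0.0302% of all probe sets were called. At an unadjusted p under 0.05, 828 were lower (56.5%) and 42 higher (2.87%), where 6.55% and 4.74% of all were. Members all had a control mean of at least 8, as did only 109552 exon parts and 79958 junctions, so most probe sets tested were dimmer. The shares called among bright probe sets were not counted, so the comparison with all probe sets is not matched for brightness. The 106 calls are not stable: the smallest adjusted p was 0.0240, a fit of the PTX and control arrays alone called 0, and so did fits without any 1 control array, without PTX replicate 1 or 2 and without 231T replicate 1 or 2. Without PTX replicate 3 it was 4, and without 231T replicate 3 it was 58. The median difference kept its sign in each of these, between -1.40 and -1.01. PTX replicate 3 lay nearer to control than the other 2, with a median of -0.66 over the members, against -1.36 and -1.39.

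The members called lower in PTX had 93 distinct sets of values and belonged to 34 annotated names, and 30 had no name. LOC100507547, on chromosome 6 and its haplotype contigs, made up 13 of them with only 2 distinct sets of values. MAGED1 had the most distinct ones, 10 of its 19, with array medians over all 19 of 6.86, 6.17 and 6.52 in 231T, 9.36, 9.79 and 10.12 in PTX, and 13.17, 12.15 and 12.19 in control. CUL7, a scaffold of a ubiquitin ligase, had 6 of 9, at medians of 7.09, 6.53 and 7.05 in 231T, 8.42, 9.45 and 9.74 in PTX, and 12.18, 11.11 and 11.42 in control. SAT1, which acetylates spermidine and spermine for their breakdown or export, had 4 of 7, at 9.93, 10.36 and 10.78 in 231T, 13.16, 12.04 and 13.37 in PTX, and 15.94, 16.07 and 16.09 in control. The groups of these 3 genes did not overlap at the medians, with PTX in the middle. ITGB4 had 4 of 32 called lower, and for the others the p missed the threshold.

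DUSP1, a phosphatase that inactivates MAP kinases, had 2 members, both called lower in PTX. Its part PSR05028431 read 8.08, 8.23 and 7.44 in 231T, 11.45, 10.12 and 9.88 in PTX, and 15.32, 15.07 and 14.92 in control, with a PTX minus control difference of -4.62 (SE 0.42, limma adjusted p = 0.0240). Parts annotated to PVT1, a long noncoding RNA, and MIR1204 numbered 6, of which 4 were called lower. Their part PSR08010092 read 7.36, 7.30 and 7.27 in 231T, 8.25, 7.73 and 9.58 in PTX, and 13.40, 12.80 and 13.05 in control (difference -4.56, SE 0.43, limma adjusted p = 0.0243). Its neighbour PSR08010091 had a larger difference of -4.89 but a wider spread in PTX and missed the threshold (limma adjusted p = 0.0611), and the unnamed part PSR08025135 had values identical to it. A part of H2BC18, a histone H2B gene, read 7.24, 8.30 and 7.21 in 231T, 7.50, 7.28 and 8.10 in PTX, and 12.91, 11.08 and 12.38 in control (difference -4.49, SE 0.50, limma adjusted p = 0.0291). For H2BC18 the 231T and PTX arrays overlapped, which they did not for DUSP1. ADGRF1, an adhesion receptor coupled to G proteins, had 3 of 6 members called lower, at medians of 8.42, 9.25 and 8.66 in 231T, 10.98, 8.69 and 9.97 in PTX, and 13.66, 13.17 and 13.06 in control.

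The lowest PTX difference of a called member was that of the part annotated to MIR3143 (PSR06002096), which read 6.99, 7.53 and 7.001 in 231T, 8.28, 8.10 and 9.27 in PTX, and 15.06, 12.74 and 14.67 in control (difference -5.60, SE 0.57, limma adjusted p = 0.0253). The unnamed PSR08025136 followed with -4.70 (SE 0.47, limma adjusted p = 0.0253). A part annotated to RPL7A and small nucleolar RNAs (PSR09009925) had a lower mean difference still, of -8.11, but its PTX arrays read 15.82, 13.71 and 3.46, and it was not called (limma adjusted p = 0.295).

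Mucins and cystatins went the other way in their values, though none of these parts was called. Of the 63 members whose PTX mean was at least 1 above control, 24 were MUC5B parts, 10 belonged to the unnamed block on chromosome 11, 6 to CST1, CST2 and CST4 and 3 to MUC5AC or MUC21. All 42 MUC5B members had a PTX mean above control, by 0.35 to 2.21, with arrays that did not overlap in 7. At an unadjusted p under 0.05, 13 of the 42 were higher, and the lowest adjusted p was 0.0707 (limma). The highest MUC5B difference, of PSR11000802, came from 4.81, 5.28 and 5.63 in 231T, 11.71, 11.16 and 12.13 in PTX, and 9.28, 8.96 and 10.12 in control. A MUC21 part on a chromosome 6 haplotype contig (PSR6_qbl_hap6000772) had the highest difference of all, 2.49 (SE 0.44, limma adjusted p = 0.0719), with 5.82, 6.95 and 5.65 in 231T, 16.80, 16.65 and 17.55 in PTX, and 14.35, 14.02 and 15.16 in control. PSR11029812 of the unnamed block followed with 2.25 (SE 0.44, limma adjusted p = 0.0931), CST2 with 2.12 (SE 0.51, limma adjusted p = 0.144) and CST4 with 2.09 (SE 0.58, limma adjusted p = 0.197). The CST2 part read 5.67, 6.42 and 5.84 in 231T, 13.83, 14.78 and 15.90 in PTX, and 13.01, 12.10 and 13.05 in control. For these genes the 231T arrays stood far below both other groups.

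**Figure D5:**
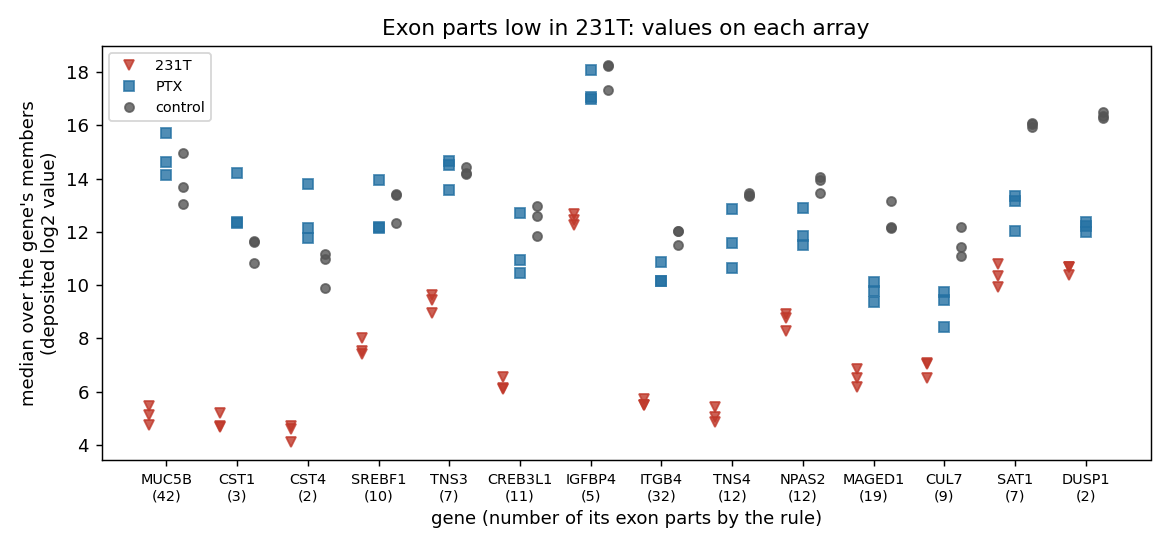
Symbols give, for each array, the median over the members of a gene on the deposited log2 scale, with the number of members in brackets. The 231T symbols are lowest for every gene shown, while PTX lies above control for CST1 and CST4, overlaps it for MUC5B, SREBF1 and TNS3, and lies below it for MAGED1, CUL7, SAT1 and DUSP1.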

How the data were processed

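The deposited values are log2 expression values, which the authors made with RMA in Affymetrix Expression Console 1.3.1, per the submitters' processing notes. RMA subtracts background, brings arrays to a common distribution and gives 1 value per probe set. Array settings, genome build and whether all 9 exon-level arrays were normalized in 1 run are not given in the sources used here. Array medians over all exon-part and junction probe sets were 4.70 to 4.75 in 231T, against 5.10 to 5.18 in PTX and control. The deposited arrays of the 3 groups thus do not share 1 common distribution. Whether 231T was processed apart from the other groups was not tested. Such a difference would enter the contrast that chose the members. Gene symbols came from the platform annotation and 33 were updated through a RefSeq table.

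The members, gene lists and tests were chosen with earlier results of these data known. The conditions were applied to values as deposited. Probe sets with a mean under the 25th percentile of all were left out before limma 3.58.1 (R 4.3.3, lmFit and eBayes, all 3 groups, Benjamini-Hochberg over 684791 probe sets, threshold 0.05), which was checked on simulated data. Gene-level records were fitted alike. Named by rule were the 5 longest runs (of 3 runs tied at 7 parts, the one with the lowest median difference), the 5 lowest differences, up to 5 lone members among level bright neighbours (4 existed), the 5 lowest and 5 highest PTX differences, and the 2 parts on each side of each threshold. Other genes were chosen after their values were seen. Same-numbered arrays of different groups correlated at -0.137 to 0.0753 in their deviations from group means, and differently numbered ones at -0.204 to 0.214. These values gave no sign of pairing by replicate number. They cannot exclude it, since deviations from a mean of 3 arrays cancel within each group. Arrays limit precision by their number. Sequences are from RefSeq, and counts and figures were made with Python 3.11.15, pandas 2.3.3 and matplotlib 3.10.9.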

Additional observations from a re-analysis of the deposited data

How the results depend on the processing

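The number of members depended on the threshold and the scaling. With the difference at -3 or lower, 4994 exon parts met the conditions, 1102 of them in runs of 3 or more and 2998 alone, and at -5 or lower 438, 122 and 250. With each array centred on its median, 883 did, of which 564 stood alone, and with quantile normalization 1011. All 883 and all 1011 were among the 1465. Without 1 control or 231T array in turn, 1434 to 1681 were chosen, with 269 to 363 in runs and 958 to 1073 alone. With 1 non-member bridged, 455 were in runs, and with only numbers that differ by 1 taken as neighbours, 216 were. Genes low throughout numbered 79, 44 after quantile normalization and 168 at a limit of 75% of parts, and genes with few low parts numbered 102, and 34 at a limit of 10%. These alternatives were chosen after seeing the data, as was leaving out alternative contigs (1376 members). Members called lower in PTX numbered 171 with a filter at the 50th percentile, 266 with exon parts fitted alone (then 3 called higher), 0 with control and PTX alone, 0 with the replicate block, and 0 to 58 without 1 array in turn, against 106. The replicate block left 829 lower and 58 higher at an unadjusted p under 0.05. Whether the replicate numbers pair the arrays was not settled. The fit of control and PTX alone has fewer samples for the spread, and for the other changes the cause was not tested. No fit called a member higher in PTX except the one on exon parts alone. The median PTX difference stayed between -1.40 and -1.01 over all alternatives.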
